A study of Mus musculus with 4 samples.

Results

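The genes described here are 49 named genes of the mitotic spindle and kinetochore. These genes were chosen by name for their known roles in cell division, with earlier results of these data known. They were read on an Affymetrix whole-transcript array as the probe set of each symbol with the highest mean, and 48 of the 49 were measured, among 19938 genes in all. The cyclin gene Ccnb1 was not analysed here. Of the 48, 47 were read by 1 probe set, while Top2a had a second, which lay between 2.22 and 3.48 on the 4 arrays. Levels are given on the log2 scale throughout, so that a difference of 1 is 2-fold.

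The 4 arrays, 1 for each group, came from C57BL/6 mouse cells. Mesenchymal stem cells (MSC) were flushed from the marrow of femurs and tibiae, selected by adhesion to plastic and grown in a serum-containing F12 medium with basic fibroblast growth factor (bFGF) at 1 ng/ml or with none listed, although the protocol for the second culture also speaks of standard medium, the name it gives elsewhere to the medium with bFGF. Osteoblasts were released by sequential enzyme digestion from calvariae of newborn mice, with cells of the last digestions pooled, and grown in serum-containing DMEM, with no bFGF listed. For the embryonic stem cells, the labels give the strain and cell type but no culture conditions. Both MSC cultures and the osteoblasts were expanded with trypsin near confluence, and for the osteoblasts the protocol also mentions culture to confluence. Neither the animals per culture, the age of the marrow donors, the passage number nor the density at harvest is stated. With 1 array per group no difference could be tested, and every value below describes these arrays.

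Mitosis is driven by cyclin-dependent kinase 1, which is switched on by cyclins and by CDC25 phosphatases. Microtubules of the spindle attach to kinetochores, protein assemblies on the centromeres, while kinesin motors move and align the chromosomes. The spindle checkpoint holds back the anaphase-promoting complex (APC/C) until all chromosomes are attached, after which sister chromatids separate and the cell is cleaved. Most of these genes are transcribed periodically, at their highest in the second gap phase and in mitosis, so that cultures with few dividing cells have low levels of their transcripts. In an RNA sample of a whole culture, fewer cells in division cannot be told apart from less of the transcripts per cell.

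A level was counted as above the floor when it exceeded the median of its array over probe sets with 1 gene symbol, which was 6.32 in MSC with bFGF, 6.29 in MSC without bFGF, 6.46 in osteoblasts and 6.46 in embryonic stem cells. Silent genes read lower than that: the upper end of the central 95% of 1190 olfactory and vomeronasal receptor genes lay at 5.57, 5.79, 5.66 and 5.49 on the arrays in the same order. The pluripotency genes Pou5f1 and Nanog stood at 10.63 and 9.24 in embryonic stem cells and at no more than 5.95 elsewhere. Of 8 such genes, 6 were above the floor in embryonic stem cells, 1 in MSC with bFGF and 0 in MSC without or in osteoblasts. Zfp42 and Esrrb were under it in embryonic stem cells, at 6.02 and 6.40, and Sox2 was above it in MSC with bFGF, at 6.40. Of 7 measured osteoblast genes, only Col1a1 and Col1a2 were above the floor in osteoblasts, and Alpl, Sp7 and Ibsp were not. Stromal genes (11 measured) were above the floor 7 times in MSC with bFGF, 5 in MSC without it, 10 in osteoblasts and 8 in embryonic stem cells, and the median stromal gene was below osteoblasts, at -2.28 in MSC with bFGF and -2.37 without. Macrophage genes were present in the cultures: of 20 markers, 17 were above the floor in MSC with bFGF, 11 in MSC without, 19 in osteoblasts and 15 in embryonic stem cells, with median levels of 9.70, 6.70, 11.20 and 7.40. Their levels ran from 4.29 to 11.16, 4.63 to 8.38, 4.48 to 13.37 and 4.28 to 11.14 on these arrays, and Cd163 was under the floor on all 4.

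The mitotic genes stood in the same order on the 4 arrays almost throughout. For 42 of the 48 the level was lowest in MSC without bFGF, higher in MSC with bFGF, higher again in osteoblasts and highest in embryonic stem cells. Among all genes measured, 5.58% had that order. This count takes the levels as read, with no tolerance. A stricter criterion, chosen after seeing the data, also asked that each step exceed the SD between probe sets of 1 gene. It was met by 35 of the 48, against 0.823% of all genes. Those of the 42 that did not meet it were Cdc25c, Aurka, Mad2l1, Ndc80, Kif20b, Espl1 and Anln. Of the 42, 10 were under the floor outside embryonic stem cells. The median level of the 48 was 6.55 in MSC with bFGF, 5.59 in MSC without bFGF, 7.40 in osteoblasts and 8.69 in embryonic stem cells. Above the floor were 28 of them in MSC with bFGF, 13 in MSC without bFGF, 36 in osteoblasts and all 48 in embryonic stem cells. Of all genes measured, 49.6%, 49.7%, 50.0% and 49.7% were above it on these arrays in the same order. Of the 48, 11 were above it in embryonic stem cells alone, and the share of all genes with that pattern was not taken.

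**Figure D1:**
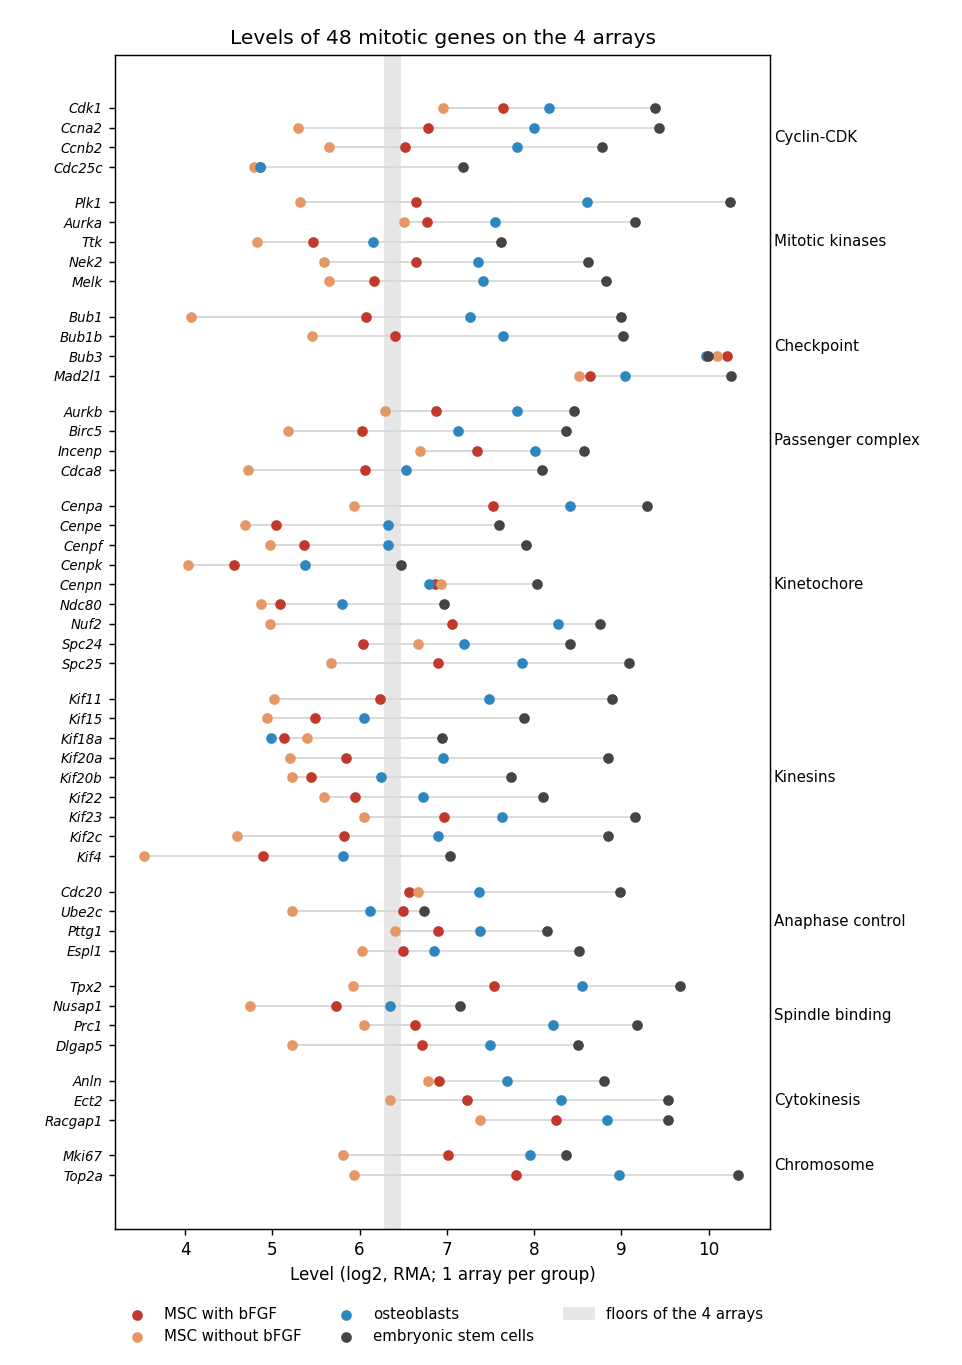
Level (log2, RMA) of each of the 48 measured mitotic genes on the arrays of MSC with bFGF, MSC without bFGF, osteoblasts and embryonic stem cells, 1 point per array, grouped by function; the grey band spans the floors of the 4 arrays. The points of 42 genes run from MSC without bFGF at the left to embryonic stem cells at the right, and those of Bub3 lie together near 10.

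Of the 6 genes that departed from this order, Bub3, whose product serves the checkpoint and also acts outside mitosis, did so most plainly. Its levels were 10.22 in MSC with bFGF, 10.09 in MSC without, 9.97 in osteoblasts and 10.00 in embryonic stem cells, a span smaller than the SD of 0.29 to 0.42 between the differences read by probe sets of the same gene. Cenpn and Kif18a had their lowest level in osteoblasts, Cdc20 and Spc24 had theirs in MSC with bFGF, and Ube2c was higher in MSC with bFGF than in osteoblasts.

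The promoters of these genes are shown because members of this set are known to share elements through which they are switched off outside division. The cell cycle genes homology region (CHR), searched here as TTTGAA or TTCGAA, is bound by the MuvB core of the DREAM complex, and the CCAAT box by the activator NF-Y. RefSeq promoter windows of the assembly GRCm38.p6, with 250 bases before and 50 after each transcription start, were found by symbol for 41 of the 49 genes, and both strands were searched. A CHR match was found in the windows of 30 of the 41 genes, or 73.2%, against 19% of the 15614 measured genes with a window. A CCAAT match was found in 29, or 70.7%, against 41.7%. Both were present in 25, or 61%, against 7.69%. In the first window of each gene, CHR matches had a median position of -12 bases from the start and CCAAT matches one of -61.5. Positions in other promoters were not taken, so these medians are not shown to be particular to the set. Such matches are descriptions of the letters and not evidence of binding.

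The stretches below run 5′ to 3′ along each gene's own strand, from 120 bases before to 30 after the listed start, with CHR and CCAAT matches on either strand in capitals. They include genes with large and with small differences between the MSC arrays. Positions are Top2a chr11:99024160-99024309 (minus strand), Bub1 chr2:127831830-127831979 (minus strand), Cenpa chr5:30666766-30666915 (plus strand), Ube2c chr2:164769809-164769958 (plus strand), Racgap1 chr15:99651627-99651776 (minus strand), Kif23 chr9:61946770-61946919 (minus strand), Cdk1 chr10:69352883-69353032 (minus strand), Cdc20 chr4:118437314-118437463 (minus strand), Bub3 chr7:131560250-131560399 (plus strand) and Nuf2 chr1:169531435-169531584 (minus strand).
Top2a: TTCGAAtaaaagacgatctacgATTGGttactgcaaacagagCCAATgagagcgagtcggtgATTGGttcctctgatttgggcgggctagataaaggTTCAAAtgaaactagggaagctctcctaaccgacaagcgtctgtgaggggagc
Bub1: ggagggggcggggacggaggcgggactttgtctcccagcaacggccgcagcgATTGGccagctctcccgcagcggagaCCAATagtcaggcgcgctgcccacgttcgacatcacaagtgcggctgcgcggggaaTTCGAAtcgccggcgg
Cenpa: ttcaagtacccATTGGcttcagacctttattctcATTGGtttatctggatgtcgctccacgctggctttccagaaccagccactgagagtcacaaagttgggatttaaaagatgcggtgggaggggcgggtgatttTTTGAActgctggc
Ube2c: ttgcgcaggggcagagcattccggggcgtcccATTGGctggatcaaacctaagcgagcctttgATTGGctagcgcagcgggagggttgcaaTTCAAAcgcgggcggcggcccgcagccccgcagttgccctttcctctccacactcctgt
Racgap1: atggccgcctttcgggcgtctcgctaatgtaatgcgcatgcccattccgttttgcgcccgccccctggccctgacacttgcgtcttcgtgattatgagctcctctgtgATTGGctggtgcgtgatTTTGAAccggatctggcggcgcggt
Kif23: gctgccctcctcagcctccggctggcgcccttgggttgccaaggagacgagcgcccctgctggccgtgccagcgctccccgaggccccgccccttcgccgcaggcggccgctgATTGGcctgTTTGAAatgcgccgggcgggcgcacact
Cdk1: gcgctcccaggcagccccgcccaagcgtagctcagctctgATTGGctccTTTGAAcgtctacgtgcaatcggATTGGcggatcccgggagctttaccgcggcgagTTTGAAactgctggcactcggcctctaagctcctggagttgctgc
Cdc20: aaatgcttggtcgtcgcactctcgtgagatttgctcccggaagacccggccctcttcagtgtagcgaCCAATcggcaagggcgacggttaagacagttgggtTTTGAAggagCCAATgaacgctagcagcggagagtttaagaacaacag
Bub3: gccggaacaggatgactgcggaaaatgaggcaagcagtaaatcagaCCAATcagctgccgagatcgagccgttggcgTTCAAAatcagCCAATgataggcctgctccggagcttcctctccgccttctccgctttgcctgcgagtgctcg
Nuf2: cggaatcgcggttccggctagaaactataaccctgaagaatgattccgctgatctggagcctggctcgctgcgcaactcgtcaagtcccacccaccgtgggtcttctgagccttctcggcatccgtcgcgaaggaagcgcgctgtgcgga
Top2a, Bub1, Cenpa and Ube2c, all at least 2-fold apart between the MSC arrays, had CHR and CCAAT matches in this stretch, and so did Cdc20 and Bub3, whose levels on those arrays were nearly equal. Nuf2, with the largest difference of the set, had neither.

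**Figure D2:**
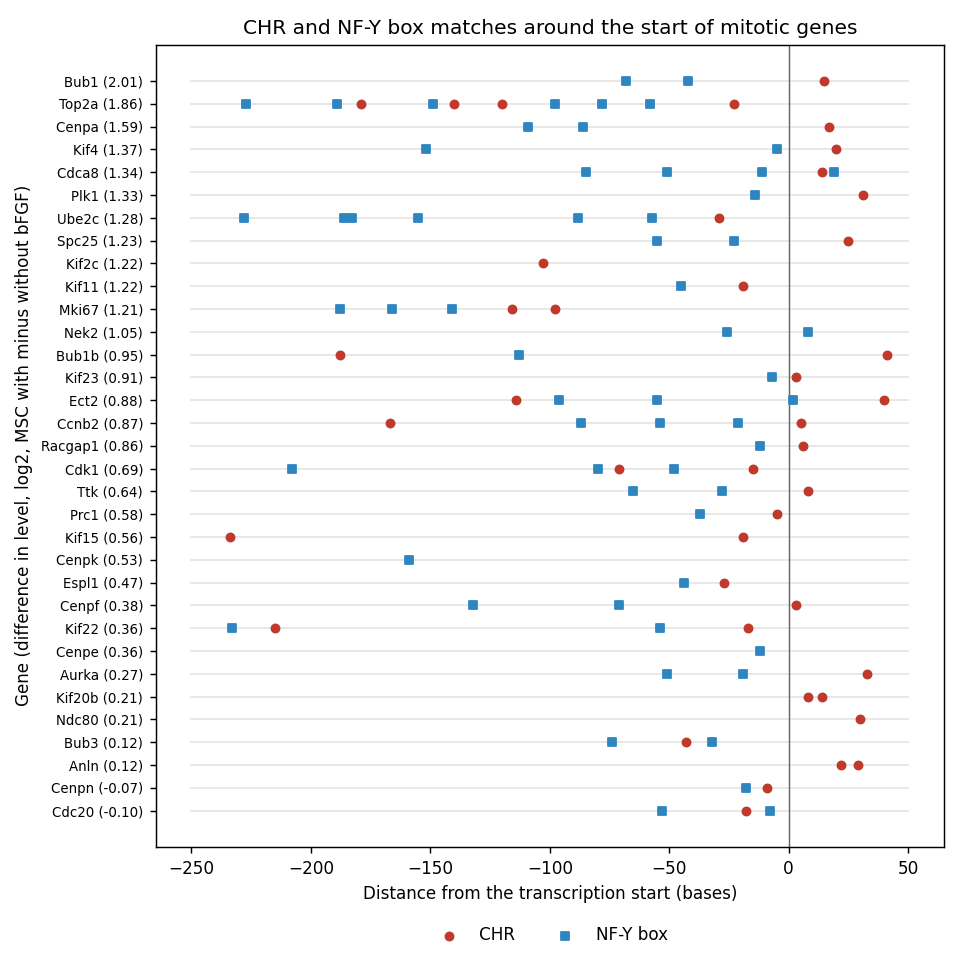
Distance in bases from the transcription start (horizontal axis, to 250 before and 50 after) of CHR matches (circles) and NF-Y boxes (squares) in the first promoter window of 33 measured mitotic genes with a match; genes are sorted from the top by the difference in level between MSC with and without bFGF, given in brackets. Squares lie mostly left of the circles, and both kinds occur from Bub1 at the top (2.01) to Cdc20 at the bottom (-0.10).

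In numbers, the 30 measured genes with a CHR match had a median difference of 0.87 between MSC with and without bFGF, and the 10 without one had 0.52. Both groups ran over almost the same range, from -0.10 to 2.01 with a match and from -0.26 to 2.09 without. Over all genes with a window the medians were -0.06 with a CHR match and -0.05 without one.

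The series compares the effects of bFGF on marrow MSC. Of the 48 mitotic genes, 44 were higher with bFGF, where 42.9% of all genes were. The median difference of the 48 was 0.67, or 1.60-fold, against -0.06 over all genes. This median lay at the upper end, 0.67, of the central range of differences among silent receptor genes. Of the 48, 19 were under the floor on both MSC arrays, so their signs and sizes are read near background. At 2-fold or more and above the floor, 11 of the 48 were higher, against 2.15% of all genes measured and 4.09% of those above the floor. The 11 were Ccna2, Plk1, Nek2, Cenpa, Nuf2, Spc25, Ube2c, Tpx2, Dlgap5, Mki67 and Top2a. None was 2-fold lower, against 0.246% of all genes. All 11 lay under the floor without bFGF, and 7 of them within the range of silent receptor genes there, so the size of these differences is read against a level near background. With the floor set at the 75th percentile of each array the count was 0.

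Levels of the 12 genes above the floor on both MSC arrays give the differences that background touches least. Of these 12, 10 were higher with bFGF and 0 reached 2-fold, with a median of 0.38 and a range from -0.10 for Cdc20 to 0.88 for Ect2. Another 5 genes (Bub1, Cdca8, Kif11, Kif2c and Kif4) were at least 2-fold higher but under the floor in both. In the same comparison 16 of the 20 macrophage markers were 2-fold or more higher with bFGF, with a median of 2.77, and the part of those cells in the mitotic levels was not tested.

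**Figure D3:**
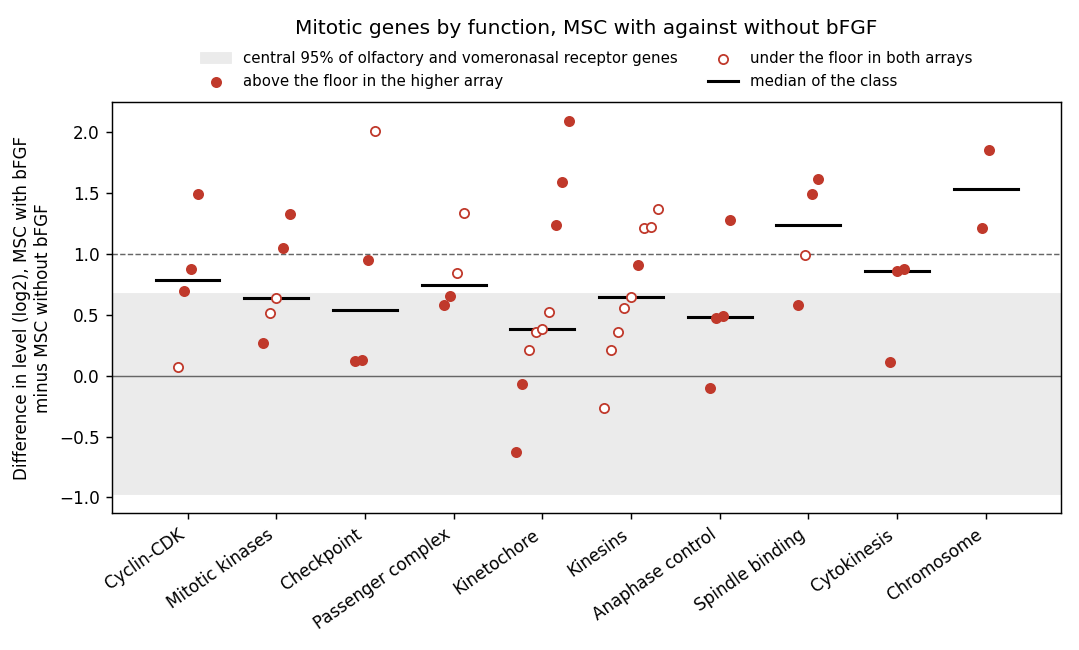
Difference in level (log2) of MSC with bFGF minus MSC without bFGF for the 48 mitotic genes, by function; filled points are above the floor in the higher array, open points under it in both, black lines are class medians, the dashed line marks 2-fold and the grey band the central 95% of silent receptor genes (-0.97 to 0.67). Spindle-binding (4) and chromosome (2) genes have the highest class medians, at 1.24 and 1.53, and 0 of them are above the floor without bFGF. Above the band lie 24 of the 48 genes.

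Among the cyclin and CDK genes, the kinase Cdk1 itself stood at 7.65 in MSC with bFGF and 6.95 in MSC without, with 8.17 in osteoblasts and 9.39 in embryonic stem cells. Its partner Ccna2 (cyclin A2) read 6.78, 5.29, 8.0 and 9.43 on the arrays in that order. Ccnb2 (cyclin B2) read 6.52, 5.65, 7.81 and 8.78. As read, cyclin A2 differed more between the MSC arrays (1.49) than the kinase it activates (0.69). The Ccna2 level without bFGF lay within the range of silent receptor genes, so the size of its difference is not exact. Cdc25c, a phosphatase that activates Cdk1, was near background at 4.85, 4.78 and 4.86 in MSC with bFGF, MSC without and osteoblasts, and stood at 7.18 in embryonic stem cells. Although counted above among the 42, it gave no order of the 3 somatic cultures beyond the spread between probe sets.

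Of the mitotic kinases, Plk1, which acts at centrosomes, kinetochores and the cleavage site, was at 6.65 in MSC with bFGF against 5.32 in MSC without, and at 8.61 in osteoblasts and 10.25 in embryonic stem cells. It was the gene furthest below osteoblasts and embryonic stem cells in MSC with bFGF, at -1.96 and -3.60. Nek2, a kinase that splits the centrosomes, read 6.64 in MSC with bFGF, 5.60 in MSC without, 7.36 in osteoblasts and 8.62 in embryonic stem cells. Its difference of 1.05 between the MSC cultures was just past 2-fold. Aurka, the centrosomal Aurora kinase, was above the floor on both and differed by 0.27 (6.78 and 6.51), within the probe set SD of 0.29. Ttk (Mps1), which starts the checkpoint signal, and Melk were higher with bFGF by 0.64 and 0.52 and under the floor in both MSC arrays.

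The checkpoint genes were unlike each other. Bub1, a kinetochore kinase, stood at 6.07 in MSC with bFGF and 4.06 in MSC without, 7.26 in the osteoblast culture and 9.00 in embryonic stem cells, under the floor on both MSC arrays. Bub1b (BubR1), part of the inhibitor of the APC/C, read 6.41, 5.45, 7.64 and 9.02, the value without bFGF lying under the floor. Mad2l1 (Mad2), of the same inhibitor, read 8.65, 8.52, 9.04 and 10.26. The differences between the MSC arrays were therefore 2.01 for Bub1 and 0.95 for Bub1b, but 0.13 for Mad2l1 and 0.12 for Bub3, the last 2 being above the floor on every array.

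The chromosomal passenger complex, which corrects faulty attachments and later works at the cell midzone, has its kinase in Aurkb, its scaffold in Incenp and its targeting subunits in Birc5 (survivin) and Cdca8 (borealin). All 4 were higher in MSC with bFGF than without. The scaffold Incenp, above the floor throughout, read 7.34 in MSC with bFGF and 6.69 without, with 8.01 in osteoblasts and 8.58 in embryonic stem cells. Aurkb read 6.88, 6.29, 7.80 and 8.46, the value without bFGF lying at the floor. Birc5 and Cdca8, under the floor on both MSC arrays, differed by 0.84 and 1.34.

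Kinetochore genes gave both the largest and the most negative difference as read, the first against a level near background. Nuf2 stood at 7.06 in MSC with bFGF against 4.97 in MSC without, a 4.26-fold difference, and at 8.27 in osteoblasts and 8.76 in embryonic stem cells. Spc24 stood at 6.04 in MSC with bFGF against 6.67 in MSC without, and at 7.20 and 8.42 in osteoblasts and embryonic stem cells. Their products sit in the same Ndc80 complex, which grips the microtubule end. Of its other subunits, Spc25 read 6.90 in MSC with bFGF, 5.67 in MSC without, 7.86 in osteoblasts and 9.09 in embryonic stem cells. Ndc80 itself read 5.08, 4.87, 5.79 and 6.97 in that order. Without bFGF, Nuf2, Spc25 and Ndc80 lay within the range of silent receptor genes, so the sizes of their differences are not measured exactly.

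At the centromere, the histone variant Cenpa, which marks where the kinetochore forms, read 7.52 in MSC with bFGF and 5.93 in MSC without. It read 8.41 in osteoblasts and 9.29 in embryonic stem cells. Cenpn, a reader of that histone, was nearly level in the first 3, at 6.86, 6.93 and 6.79, and stood at 8.03 in embryonic stem cells. Cenpk, of the constitutive centromere network, lay between 4.03 and 5.37 outside embryonic stem cells, and 6.47 there. Of the outer, fibrous kinetochore, the motor Cenpe and the large coiled-coil protein Cenpf were under the floor on all but the embryonic stem cell array. Both were higher with bFGF than without, by 0.36 and 0.38.

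The kinesins were mostly at low levels in MSC. Of the 9, Kif23 alone was above the floor in MSC with bFGF and 0 were in MSC without, while 5 were in osteoblasts and 9 in embryonic stem cells. Kif11 (Eg5), which pushes spindle poles apart, stood at 6.23 in MSC with bFGF against 5.01 without, and at 7.48 and 8.89 in osteoblasts and embryonic stem cells. Kif2c (MCAK), which takes microtubule ends apart, read 5.82, 4.60, 6.90 and 8.85. Kif4, a motor of chromosome arms, read 4.89, 3.52, 5.81 and 7.04, the lowest MSC value of the set. All 3 differed by 1.22 to 1.37 between the MSC arrays, under the floor in both. Kif15, Kif20a, Kif20b and Kif22 differed by 0.21 to 0.65. Kif18a, which damps chromosome movements, was the exception in sign at -0.26, with levels of 5.13 with bFGF, 5.39 without and 4.99 in osteoblasts, near background, and 6.95 in embryonic stem cells.

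Genes of anaphase control varied too. Ube2c, the ubiquitin-conjugating enzyme of the APC/C, read 6.50 in MSC with bFGF, 5.22 in MSC without, 6.11 in osteoblasts and 6.74 in embryonic stem cells. Its level with bFGF thus lay within 0.24 of embryonic stem cells, where the median gene of the set lay 2.15 lower. On the embryonic stem cell array, however, Ube2c was close to the floor of 6.46, while the median level of the set was 8.69. Cdc20, the activator that the checkpoint restrains, read 6.57, 6.67, 7.37 and 8.98, the first value being 0.10 below the second. Pttg1 (securin) and Espl1 (separase), the inhibitor and the protease that cuts cohesin, were higher with bFGF by 0.49 and 0.47.

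Spindle-binding genes had the second highest class median between the MSC arrays, 1.24, with 0 of the 4 above the floor without bFGF. Tpx2, which nucleates microtubules around chromosomes and activates Aurora A, stood at 7.54 in MSC with bFGF against 5.93 in MSC without, and at 8.55 in osteoblasts and 9.67 in embryonic stem cells. Its kinase partner gene Aurka differed by 0.27 in that comparison, as given above, and Tpx2 by 1.61. Without bFGF, Tpx2 lay under the floor, so these sizes are not measured alike. Dlgap5 (HURP), which stabilizes kinetochore fibres, read 6.71, 5.22, 7.50 and 8.50. Nusap1 and the midzone bundler Prc1 differed by 0.99 and 0.58.

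For cytokinesis, Kif23 and Racgap1, whose products form the centralspindlin complex, gave nearly equal differences of 0.91 and 0.86. Kif23 read 6.96 in MSC with bFGF, 6.05 in MSC without, 7.63 in osteoblasts and 9.15 in embryonic stem cells. Racgap1, above the floor throughout, read 8.25, 7.38, 8.84 and 9.53. Ect2, the exchange factor for RhoA that centralspindlin recruits, followed at 0.88, with levels of 7.23, 6.35, 8.31 and 9.54. Anln (anillin), a scaffold of the contractile ring, did not: it read 6.90 with bFGF against 6.79 without, 0.12 apart.

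The chromosome genes were the proliferation marker Mki67, which coats mitotic chromosomes, and Top2a, the topoisomerase that untangles them. Mki67 read 7.02 in MSC with bFGF, 5.81 in MSC without, 7.95 in osteoblasts and 8.37 in embryonic stem cells. Top2a read 7.79, 5.93, 8.98 and 10.34. Both were 2-fold or more higher with bFGF, by 1.21 and 1.86, and both remained below osteoblasts with it. The second Top2a probe set, in the range of silent genes, differed by 0.37.

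Set against osteoblasts, the mitotic genes were lower in MSC in both cultures. In MSC with bFGF 44 of 48 were lower, where 54.9% of all genes were, with a median of -0.81. At 2-fold and above the floor 16 were lower, against 5.26% of all genes measured and 9.71% of those above the floor, and 0 were higher, against 4.06%. Among genes above the floor, Plk1, Prc1 and Ccnb2 had the most negative differences, at -1.96, -1.57 and -1.28. In MSC without bFGF 28 were 2-fold lower, against 7.29% of all genes measured and 13.3% of those above the floor, with a median of -1.59, and 0 were higher, against 4.49%. By sign 45 were lower, against 48% of all genes. Nuf2, Plk1, Bub1 and Top2a differed there by -3.31, -3.29, -3.20 and -3.04 as read, the first 3 against levels in the range of silent genes. With the floor at the 75th percentile the counts were 6 for MSC with bFGF, against 2.97% of all genes, and 9 for MSC without, against 4.14%. The macrophage markers had medians of -1.24 and -4.02 in these comparisons, with 12 and 19 of 20 at 2-fold lower, and their part in the mitotic differences was not tested.

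By function, the chromosome genes had medians of -1.06 with bFGF and -2.59 without. Spindle-binding genes had medians of -0.89 with bFGF and -2.22 without. Neither class had a gene above the floor in MSC without bFGF. Anaphase genes lay closest, at -0.42 with bFGF and -0.86 without. Since both comparisons share the osteoblast array, the values are given side by side only.

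Embryonic stem cells are known for a fast cell cycle with a short first gap phase, but cycling was not measured here and its part was not tested. Set against these cells, nearly all members were low. In MSC with bFGF 46 of 48 were 2-fold or more lower, against 5.8% of all genes measured and 10.6% of those above the floor, and the median was -2.15, or 4.45-fold lower. None was 2-fold higher, against 6.2%, and 47 were lower by sign, against 49.2% of all genes. The exceptions to the count of 46 were Bub3 and Ube2c. In MSC without bFGF 47 were, against 6.51% and 11.8%, with a median of -2.92, or 7.56-fold lower, and Bub3 was the exception. Again 0 were 2-fold higher, against 5.71%, and by sign 47 were lower, against 43.9%. Bub1 and Plk1 had the most negative differences there, -4.94 and -4.93, and Top2a, Kif2c and Ccna2 followed at -4.41, -4.25 and -4.14, all as read and, except for Top2a, against levels in the range of silent genes. For MSC with bFGF the most negative were Plk1 at -3.60, Kif2c at -3.03 and Kif20a at -3.00. The median macrophage marker was at 1.99 in the first of these comparisons and at -0.49 in the second, and the part of those cells in the mitotic differences was not tested.

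Osteoblasts too were below embryonic stem cells for all 48 genes, where 44.8% of all genes were, with a median of -1.24. At 2-fold 36 were lower, against 4.84% of all genes measured and 8.83% of those above the floor, and 0 were higher, against 6.73%. All 5 mitotic kinases and all 9 kinesins were among the 36. Kif2c, above the floor on both arrays, differed by -1.95. Cdc25c and Kif18a read -2.32 and -1.96, but their osteoblast levels lay in the range of silent genes, so these sizes are not exact. The smallest, after Bub3 at -0.03, were those of Mki67 at -0.42 and Nuf2 at -0.49. The median macrophage marker was higher in osteoblasts by 3.38, with the same limit.

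Related genes outside the set were read in the same way. Of 63 other measured mitosis genes, 50 were higher in MSC with bFGF than without and 2 were 2-fold or more higher and above the floor (Tacc3 at 1.11 and Kif18b at 1.03), with a median of 0.37. Of all genes 42.9% were higher and 2.15% were at 2-fold, so the second count is near the background. The largest differences were those of Ska3 (1.46), Knl1 (1.25) and Ncapg (1.25), a microtubule-binding kinetochore protein, the platform of the outer kinetochore and a condensin subunit, all under the floor in both arrays. The most negative were Cenpq at -0.34, Cenpu at -0.30, near background on both arrays, and Cenpo at -0.28, while Cenpi and Cenpp of the same list, named after their values were seen and also near background, stood at 0.72 and 0.51. The order from MSC without bFGF up to embryonic stem cells held for 40 of these 63 genes, for 22 of 33 measured genes of the G1/S transition and DNA replication, for 4 of 24 constitutive spindle genes and for 1 of 15 core subunits and activators of the APC/C, against 5.58% of all genes, a share the last count is close to.

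Genes of machinery present throughout the cell cycle had medians near 0 in these comparisons. The median core APC/C gene stood at -0.09 in MSC with bFGF minus MSC without, from -0.38 for Anapc13 to 0.22 for Anapc15, and 15 of 15 were above the floor on both arrays. Constitutive spindle genes, such as the dynein anchor Numa1 (-0.15) and the augmin subunit Haus5 (0.65), had their median at 0.03. Against embryonic stem cells, the medians of these 2 lists were -0.07 and -0.21 for MSC with bFGF, and 0.08 and -0.23 for MSC without. The genes of G1/S and replication had medians of 0.37, -1.34 and -1.91 in these 3 comparisons.

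**Figure D4:**
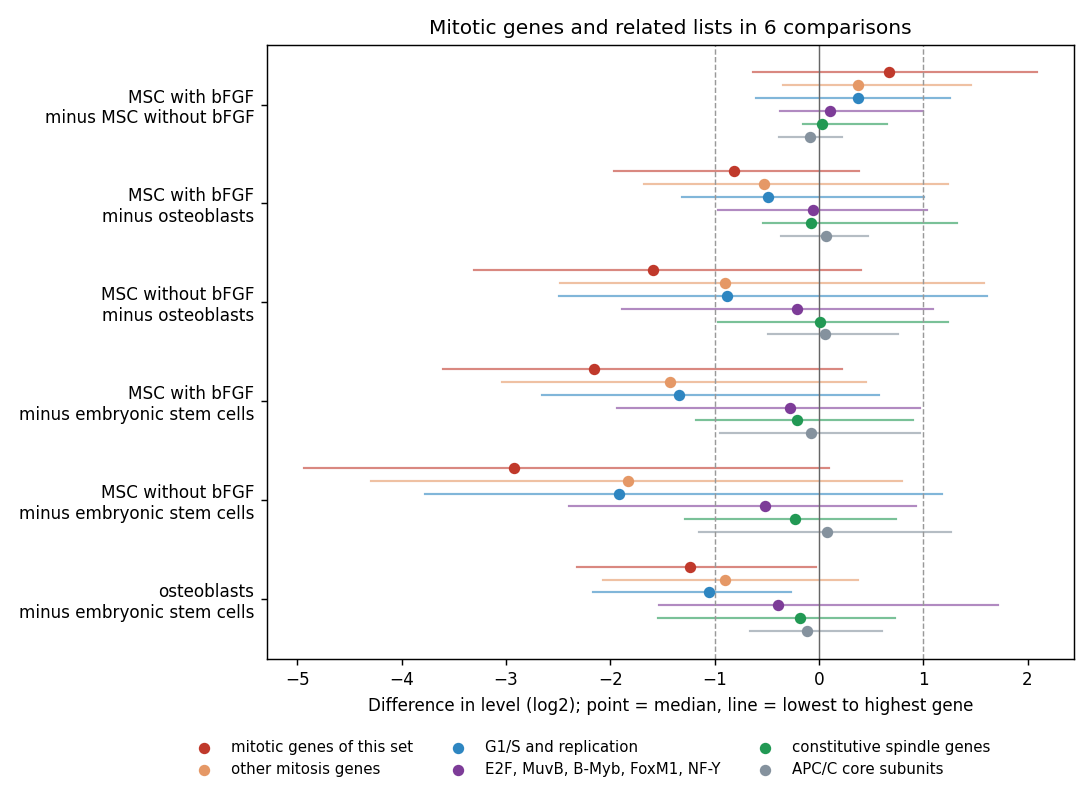
Median (point) and range (line) of the difference in level (log2) in 6 comparisons for the 48 mitotic genes, 63 other mitosis genes, 33 genes of G1/S and replication, 22 transcriptional regulators, 24 constitutive spindle genes and 15 core APC/C genes; dashed lines mark 2-fold. The mitotic genes have the median furthest from 0 in each comparison (0.67 at the top, -2.92 for MSC without bFGF minus embryonic stem cells), and medians of the core APC/C genes lie between -0.11 and 0.08.

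Transcriptional regulators of cell cycle genes were read as well, and their action on these promoters was not tested. Foxm1, an activator of late cell cycle genes that is itself periodic, stood at 6.45 in MSC with bFGF, 5.92 in MSC without, 7.04 in osteoblasts and 7.64 in embryonic stem cells. Mybl2 (B-Myb), which joins the MuvB core in dividing cells, read 6.41, 5.95, 6.98 and 8.35. Both had the order of the mitotic genes and lay above the floor in MSC only with bFGF. Of the 22 regulators measured, 14 were higher with bFGF than without, against 42.9% of all genes, with a median of 0.11. Rbl1 (p107), a pocket protein of the DREAM complex, had the largest difference at 1.00, and was the only regulator at 2-fold, against 2.15% of all genes, followed by Tfdp2 at 0.79 and E2f8 at 0.61. E2f1, E2f2 and Lin52, a MuvB subunit, lay at the other end, at -0.38, -0.36 and -0.27. Of these regulators, E2f8 and E2f2 were under the floor on both MSC arrays. Genes for the NF-Y subunits Nfya, Nfyb and Nfyc differed by 0.12, -0.16 and 0.21.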

How the data were processed

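The authors deposited log2 levels per probe set; per the submitters' processing notes Affymetrix Expression Console was used with RMA, which corrects background, equalises the distributions of arrays and summarises probes. No version or genome build is stated there, and the log2 scale was inferred from the values. RMA would hide a general change of RNA per cell, and low levels compress differences. Precision is limited by having 1 array per group.

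Of 35556 probe sets, 21789 had 1 symbol, 1621 several and 12146 none in the platform annotation; only the first were named. The probe set with the highest mean stood for each of 19938 genes, 999 of which had several. Genes were counted at 2-fold with the higher array above its floor. The members and lists were chosen with earlier results of these data known. All members were named. From the lists of related genes, up to 3 each way were named by the difference between MSC arrays, but none from the G1/S list. Foxm1, Mybl2, the NF-Y genes, Tacc3, Kif18b, Cenpi and Cenpp were named outside this rule. The counting code was checked on simulated levels with known differences, which says nothing of the real counts. Alternatives were the mean of probe sets, other floors, 1.5-fold, centring, loess (span 0.3) and repeated quantile normalization. Noise was gauged from genes with several probe sets (SD of their differences) and from the receptor genes. Promoters and chromosomes came from RefSeq (GRCm38.p6). Python 3.11.15, numpy 2.4.6, pandas 2.3.3 and statsmodels 0.14.6 were used.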

Additional observations from a re-analysis of the deposited data

How the results depend on the processing

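Of 132 recomputed values, 126 were counts within 1.5 times the count reported or medians of the same sign within the SD between probe sets. This covers the mean of probe sets, centring, a loess curve, repeated quantile normalization and no floor for every comparison, and medians without the member with the largest difference or without members under the floor. Many of the 126 were counts of 0 that stayed 0, which could hardly move. Because 47 of the 48 members had 1 probe set, the mean of probe sets could change only Top2a. The other 6 of the 132 were counts. With a floor at the 75th percentile of each array, the 2-fold counts were 0 higher for MSC with bFGF against MSC without (0.863% of all genes), and, against osteoblasts, 6 lower for MSC with bFGF (2.97%) and 9 lower for MSC without (4.14%). By construction this floor leaves fewer genes. At 1.5-fold, the counts for MSC with bFGF were 18 higher and 1 lower against MSC without (3.92% and 1.76% of all genes), and 29 lower against osteoblasts (9.98%). A floor at the upper end of the central 95% of receptor genes, chosen after seeing the data, gave counts within 1.5 times of those reported. No paired analysis was possible because each group has 1 array, and for the same reason no array could be left out. Levels near those of silent genes limit the size of differences on every array except that of embryonic stem cells.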
